A study of Homo sapiens with 32 samples.

Results

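The transcriptional response to dasatinib (Das) in cells that also received salinomycin (Sal) was examined at 24 h by RNA-seq. MDA-MB-468, a triple negative breast tumor cell line with a very high level of the epidermal growth factor receptor, was given 0.5 µM Sal alone (Sal group) or 0.5 µM Sal together with 15 µM Das (S + D group) for 24 h. The members are the 4 S + D libraries and the 4 Sal libraries of that time point, chosen by their labels, 8 of the 32 libraries in the series. The other 24 h groups received PBS (control) or 15 µM Das, and the same 4 groups were sequenced at 72 h. All cells are one wild-type line grown as a monolayer in serum, so the replicates differ by culture flask and not by genotype or donor.

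Das is an inhibitor of tyrosine kinases of the SRC and ABL families that also binds other kinases, among them the discoidin domain, ephrin and salt-inducible kinases. In epithelial cells SRC family kinases link integrins and growth factor receptors to the ERK cascade, whose output includes the immediate early factors of the EGR and AP-1 families, the ETS factors ETV1, ETV4 and ETV5, and cyclin D1. Actin dynamics downstream of SRC act on SRF and its cofactors and on YAP, which binds DNA through TEAD factors. Sal is a polyether ionophore that carries potassium ions across membranes and disturbs the Golgi, the endoplasmic reticulum and lysosomes. Adding Das to Sal here means that the drugs were given at the same time, with Sal alone as the comparison. The comparison therefore asks which of the kinase-dependent programmes respond to Das when the ionophore is also present. It does not describe cells that were treated with Sal before Das.

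The promoters of 3 genes are shown, picked because they carry a well-known motif of a factor named with each. CGA had the largest rise below, and EGR1 and CCN2 the largest falls of their gene lists (immediate early factors, and YAP and TEAD targets). They are RefSeq sequences of GRCh38.p14, each running 250 bases up to the start of the gene, printed 5′ to 3′ on the strand of the gene. CGA (chr6:87095107-87095356, minus strand) gave the largest rise, and the capitals mark the CRE motif TGACGTCA, the site of CREB.
CGA: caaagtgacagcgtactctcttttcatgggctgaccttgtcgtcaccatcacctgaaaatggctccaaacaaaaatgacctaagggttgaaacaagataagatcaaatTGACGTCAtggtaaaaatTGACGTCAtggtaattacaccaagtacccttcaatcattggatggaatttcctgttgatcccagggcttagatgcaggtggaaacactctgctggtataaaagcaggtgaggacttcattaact
For EGR1 (chr5:138465229-138465478, plus strand), which fell, the capitals mark CArG boxes (CC, 6 bases of A or T, GG), the site of SRF.
EGR1: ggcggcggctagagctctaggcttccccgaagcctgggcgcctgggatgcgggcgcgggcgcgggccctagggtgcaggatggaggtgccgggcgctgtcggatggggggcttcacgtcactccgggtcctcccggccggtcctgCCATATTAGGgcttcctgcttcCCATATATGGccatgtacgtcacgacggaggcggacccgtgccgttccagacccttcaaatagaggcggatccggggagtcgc
For CCN2 (chr6:131951373-131951622, minus strand), which also fell, they mark GGAATG, the core of the TEAD site.
CCN2: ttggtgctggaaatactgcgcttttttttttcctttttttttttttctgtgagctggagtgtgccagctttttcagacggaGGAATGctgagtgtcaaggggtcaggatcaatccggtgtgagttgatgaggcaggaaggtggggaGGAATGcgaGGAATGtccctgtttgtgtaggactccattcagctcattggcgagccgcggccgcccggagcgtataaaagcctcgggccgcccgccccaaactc
CGA and EGR1 hold 2 copies of their motif and CCN2 holds 3. On either strand of 300-base windows that run 50 bases past the start, the CRE was found in 1.85% of 35116 promoters, the CArG box in 1.29% and GGAATG in 14% of them. A match describes the letters of the window and does not show binding.

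Total counts were 28721753 to 38532313 per Sal library and 29616013 to 33390639 per S + D library. The labels give replicate numbers to 3 libraries of each group and none to the fourth. At 24 h the 4 unnumbered libraries stood apart on the second principal component (28.3% of the variance), at 28.15 to 58.9 against -24.2 to -1.90 for the 12 numbered ones, while the first (43.1%) ran from control (-43.2 to -37.3) to S + D (37.0 to 43.3). The unnumbered Sal library was the farthest. Per-library levels are therefore given with the unnumbered library first, followed by replicates 1, 2 and 3. The markers of a basal breast epithelial line summed to 7151 to 9252 CPM (read counts scaled to the size of the library) in Sal and 6546 to 7692 in S + D, led by EGFR at 4769 ± 1027 (SD, n = 4) and 4514 ± 559.8. Of these 11 markers 6 fell, among them KRT5 (495 ± 102 and 196 ± 40.2 CPM) and KRT8 (839 ± 144 and 411 ± 89.5), and 0 rose. Fibroblast markers summed to at most 70.1 CPM, nearly all COL1A1, with COL1A2 and COL3A1 at 0 counts in both groups. Leukocyte markers summed to 12 to 14.5 CPM in Sal and 2.42 to 2.86 in S + D, nearly all CD14, while PTPRC, which defines leukocytes, was below 0.05 CPM on average. PGR was near 0, ESR1 at 6.57 ± 1.97 and 7.32 ± 1.09 CPM, and ERBB2, which rose, at 109.6 ± 10.8 and 146 ± 2.61.

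Of 16357 genes tested, 158 rose (0.966%) and 175 fell (1.07%) when Das was added to Sal, at an adjusted p under 0.01 in edgeR's quasi-likelihood test and an absolute log2 fold change above 1.5. At the adjusted p alone, 954 rose (5.83%) and 1154 fell (7.06%). In a fit of the 12 numbered libraries alone, which is given beside some lists, 2997 of 16257 rose (18.4%) and 3734 fell (23%) at the adjusted p alone, so list counts from that fit are to be read against these larger shares. Protein-coding genes made up 112 of the rises and 146 of the falls, and lncRNAs 35 and 20. Over all genes tested 80.4% were protein-coding, against 70.9% of the rises and 83.4% of the falls. The rising genes were low to begin with, with a median of 0.447 CPM in Sal and 1.89 in S + D, while the falling genes went from a median of 3.65 to 0.786. All 4 S + D libraries lay above all 4 Sal libraries for 154 of the 158, against 11.7% of the genes tested, and below for 164 of the 175, against 10.3%. Within the unnumbered pair alone, all 158 rises were positive and 174 of the 175 falls negative. The calls were made on these same libraries, so the separation and the signs largely follow from them and are no separate support. RNA from a flask is measured in bulk, so fewer cells of a kind and less RNA per cell cannot be told apart.

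The genes ranked here by size reached a mean of 1 CPM in the higher group and had no overlap between the groups, a limit that leaves out lower genes with equal or larger estimates (LRRC4, at 0.342 CPM in Sal and 0 counts in S + D, among them). CGA, the alpha subunit shared by the glycoprotein hormones, gave the largest rise. It stood at 0.0272, 0, 0 and 0.0283 CPM in the Sal libraries and 1.92, 2.64, 2.01 and 2.11 in the S + D libraries. The Sal libraries held 2 counts in all and the S + D libraries 279, a ratio of 146 with a 95% counting interval of 40.0 to 1210 (adjusted p = 1.19e-06). SMOC1, a secreted matricellular protein, was at 0.191, 0.443, 0.838 and 0.537 CPM in Sal and 23.7, 39.5, 37.7 and 39.5 in S + D. The groups were far apart, with a log2 fold change of 6.15 (SE 0.31, adjusted p = 8.05e-09). MAPK4, an atypical MAP kinase, measured 0.491, 1.57, 1.15 and 1.53 CPM in Sal and 22.7, 56.3, 52.4 and 53.8 in S + D, with the unnumbered library lowest in both groups. Its log2 fold change was 5.29 (SE 0.37). DDIT4L, an inhibitor of mTOR signalling, rose from a mean of 0.971 ± 0.0557 to 12.9 ± 0.65 CPM (SD, n = 4), log2 3.73.

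CYP1A1, a monooxygenase that is the classic target of the aryl hydrocarbon receptor, was the most abundant of the 12 largest rises. Its level was 83.3, 51.7, 48.8 and 48.5 CPM in Sal and 513, 569.9, 579 and 576 in S + D, 9.62-fold higher (log2 3.27, SE 0.28, adjusted p = 8.73e-07). RHOU, an atypical small GTPase, stood at 2.97, 3.34, 5.59 and 4.89 and 23.8, 35.4, 35.2 and 35.8 CPM, log2 2.96. The other rises by size above that limit were CMBL (log2 3.33), GNG13 (3.20), CCN3 (3.05), COL15A1 (3.01), RASD1 (2.98) and CCN5 (2.98), each below 10 CPM in every library. CCN3 and CCN5 are matricellular proteins, COL15A1 a basement membrane collagen and RASD1 a RAS-like GTPase first found as a gene induced by dexamethasone. GNG13, a G protein gamma subunit, shares 19.7% of its exon bases with CHTF18, so its counts are less certain. For CCN5 the unnumbered library was highest in both groups, at 1.72 and 8.47 CPM against at most 0.207 and 3.58 in the others, and CCN5 was not called without replicate 1, 2 or 3 of Sal, taken singly.

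**Figure D1:**
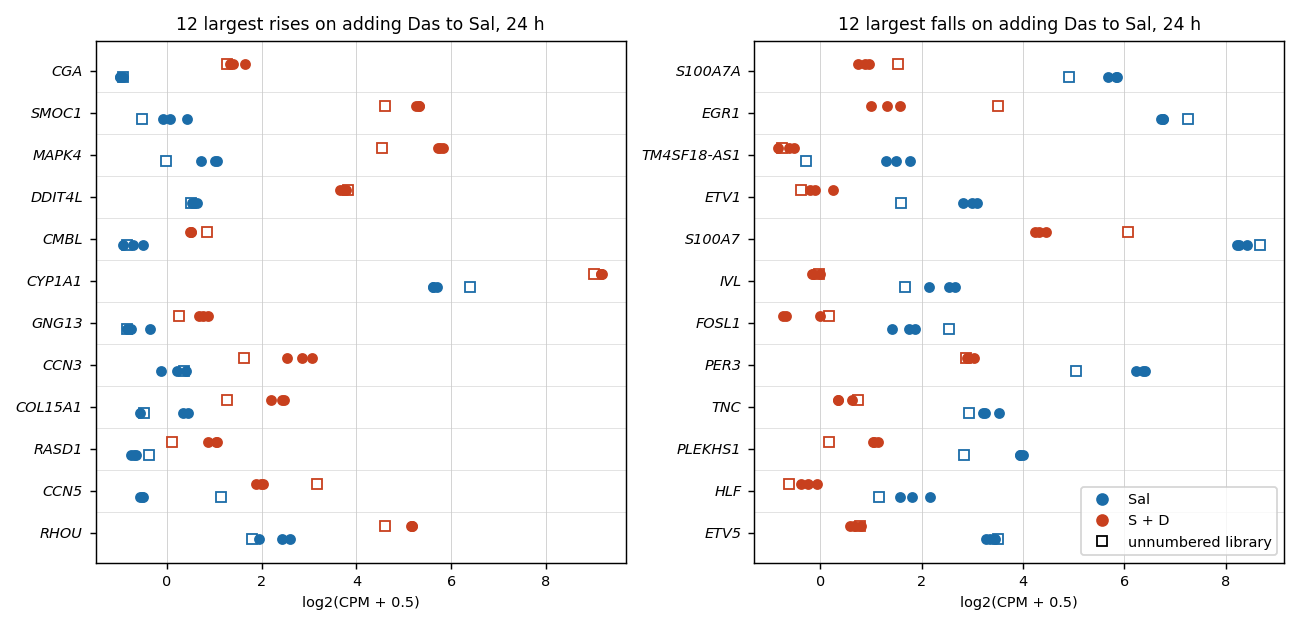
Level of the 12 genes with the largest rise (left) and the 12 with the largest fall (right) among genes whose mean reached 1 CPM in the higher group, in each library, as log2(CPM + 0.5) on the horizontal axis; blue points are the 4 Sal libraries and red points the 4 S + D libraries, with open squares for the unnumbered library of each group. The genes were chosen to have the 4 red points on one side of the 4 blue ones, so the separation follows from that choice. They run from CGA at the top left to ETV5 at the bottom right.

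Above the same limit the largest falls were in epidermal differentiation genes, targets of ERK and a pair of clock genes. S100A7A and S100A7 (psoriasin) are small calcium-binding proteins made by keratinocytes that leave the basal layer. S100A7A was at 29.4, 56.3, 57 and 50.8 CPM in Sal and 2.4, 1.46, 1.18 and 1.35 in S + D, log2 -4.91 (SE 0.34, adjusted p = 9.74e-08). S100A7 went from 409.9, 307, 342 and 298 to 66.8, 21.3, 18.3 and 19.4 CPM, log2 -3.43 (SE 0.51). The unnumbered S + D library held more S100A7 than the other 3 together, yet lay far below every Sal library. The 2 genes are close paralogs, so their split of reads is uncertain. IVL, the involucrin of the cornified envelope, fell from 4.44 ± 1.42 to 0.443 ± 0.0497 CPM, log2 -3.31.

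EGR1, a zinc finger factor induced within minutes of ERK activation, was the most abundant of the falling transcription factors among the 12. Sal libraries held 152, 108, 109 and 105 CPM and S + D libraries 10.9, 1.49, 2.47 and 1.99, a 28.1-fold fall (log2 -4.81, SE 0.61, adjusted p = 3.89e-05). The ETS factor ETV1 was at 2.54, 7.51, 8.07 and 6.5 CPM in Sal and 0.269, 0.682, 0.428 and 0.368 in S + D, log2 -3.81. ETV5 was at 10.8, 9.63, 10.4 and 9.19 and 1.23, 1.09, 1.25 and 1.01 CPM, log2 -3.13 (SE 0.15), with replicates that barely differed. FOSL1, an AP-1 subunit whose protein is stabilised by ERK, fell by 3.30 on the log2 scale, from 3.37 ± 1.34 to 0.335 ± 0.265 CPM.

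PER3, a repressor of the circadian clock, was at 32.7, 84.8, 82.5 and 74.3 CPM in Sal and 6.8, 6.98, 7.7 and 7.05 in S + D, log2 -3.27 (SE 0.23). HLF, a PAR bZIP factor driven by the clock, fell from 2.8 ± 0.944 to 0.303 ± 0.13 CPM, log2 -3.19. PER3 shares 16.6% of its exon bases with UTS2. TNC, the matrix protein tenascin-C, went from 7.17, 11, 8.8 and 8.99 to 1.17, 0.775, 1.05 and 0.766 CPM, log2 -3.25. PLEKHS1 had log2 -3.24, and the lncRNA TM4SF18-AS1 had -3.86 but shares 22.5% of its exon bases with TM4SF18, so their reads cannot be told apart without strand.

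Immediate early factors moved in both directions. Of 20 tested, 5 fell and 3 rose, and their median log2 fold change was -0.37 against 0.02 over all genes tested. EGR1, EGR3 and FOSL1 gave the largest falls. EGR3 held 60 counts in the Sal libraries and 3 in S + D, a Sal to S + D ratio of 19.1 (95% counting interval 6.24 to 95.4). The rises were in the orphan nuclear receptors NR4A3 and NR4A2 and in KLF4, a factor of epithelial differentiation. NR4A3 was at 5.37, 1.06, 1.5 and 1.5 CPM in Sal and 12.5, 11.2, 10.5 and 9.77 in S + D, log2 2.21 (SE 0.35), the unnumbered Sal library being highest of its group. NR4A2 was at 26.4, 22.6, 22.7 and 24.4 and 64.6, 53, 51.3 and 54.8 CPM, log2 1.22, and KLF4 had log2 0.75. In the numbered libraries 10 fell and 8 rose.

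The feedback genes of ERK fell more often than they rose, 6 against 2 of 20, with a median log2 of -0.42. Besides ETV1 and ETV5 the list's largest fall was in ETV4, from 16.1, 16.4, 12.9 and 15.5 CPM to 3.71, 0.993, 1.58 and 0.98, log2 -3.06 (adjusted p = 8.17e-06). SPRY4 (log2 -3.02) and DUSP6 (-2.61), inhibitors that ERK induces against itself, also fell and were named after their values were seen. The rises were in MAFF, a small MAF factor, at log2 1.10, and in DUSP16, a phosphatase of JNK and p38, at 0.90. In the numbered libraries 12 fell and 4 rose, and without the unnumbered Sal library 4 rose. In the EGFR family list 4 of 12 rose and 0 fell, but in the numbered libraries 3 rose and 4 fell. The largest of the 4 rises was the ligand EPGN, which was at 0.109, 0, 0.14 and 0.0283 CPM in Sal and 0.868, 1.12, 0.756 and 1.1 in S + D (log2 3.77, adjusted p = 0.000149). HBEGF (0.76) and EGF (0.59) rose less. HBEGF was not called without any 1 library other than the unnumbered Sal one, nor EGF without any other than replicate 2 of Sal or replicate 1 of S + D. EGF was also not called in the numbered libraries (log2 0.35, adjusted p = 0.0146 in edgeR). The count of 4 was 2 without any 1 of 3 S + D libraries (unnumbered, replicate 2 or replicate 3) or of 2 Sal libraries (replicate 1 or 3).

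Among the kinases that Das binds, 4 of 19 fell and 3 rose, with a median of -0.04 (0.17 in the unnumbered pair and -0.08 in the numbered libraries, on the log2(CPM + 0.5) scale). FYN, a SRC family kinase, rose from 6.9, 5.17, 6.6 and 6.22 CPM in Sal to 33.4, 25.2, 26.9 and 26.5 in S + D, 4.5-fold (log2 2.17, SE 0.13, adjusted p = 1.48e-08). SIK1, the salt-inducible kinase whose own gene is a CREB target, went from 32.2, 39.7, 33.3 and 37.7 to 166, 124, 119.6 and 115 CPM, log2 1.88. Because 91% of the SIK1 exon bases overlap another annotated gene, this level is uncertain. DDR2, a collagen receptor, went from 1.01 ± 0.142 to 2.18 ± 0.332 CPM, log2 1.10, and was not called without replicate 1 or 3 of Sal or replicate 2 of S + D. In the other direction, EPHA2 had log2 -1.17, DDR1 -0.67 at 1144 ± 99.8 and 717 ± 66 CPM, and SRC -0.42. SRC itself was at 29.2, 43, 37 and 39.4 CPM in Sal and 27.9, 27.1, 28.8 and 27.4 in S + D (SE 0.10, adjusted p = 0.00666), a small fall that was not called without any 1 library other than the unnumbered Sal one. The 4 falls were 2 without replicate 1 or 3 of Sal or replicate 1, 2 or 3 of S + D, taken singly.

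Targets of SRF and the actin cytoskeleton genes fell in 11 of 21 cases and rose in 0, with a median of -0.49. ACTB, the beta actin of every cell, was at 3000.0, 3555, 3195 and 3349 CPM in Sal and 1854, 1934, 1925 and 1888 in S + D, log2 -0.79 (SE 0.06, adjusted p = 5.53e-07). FHL2, a LIM protein, had log2 -0.77, and MYL9, a myosin light chain, -1.02 at under 1 CPM. FHL2 was called in the leave-outs only without the unnumbered S + D library, and MYL9 only without replicate 2 or the unnumbered library of Sal. Of the 26 YAP and TEAD targets 5 fell and 0 rose, with a median of -0.28. CCN2 (connective tissue growth factor) was at 23.9, 12.1, 14.8 and 12.3 CPM in Sal and 2.33, 1.58, 2.86 and 3 in S + D, log2 -2.69 (SE 0.43, adjusted p = 0.00031), and it shares 11.9% of its exon bases with LINC01013. ANKRD1 (-1.5) and NT5E (-1.05) followed. Integrin, laminin and matrix genes fell in 7 of 31 cases, led by TNC, by MMP7 (matrilysin, log2 -2.65) and by ITGA9 (the alpha 9 integrin, -2.28), and rose in 0. In the 12 numbered libraries the falls numbered 16 of 26 YAP targets and 20 of 30 integrin and matrix genes, with 3 rises in each.

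**Figure D2:**
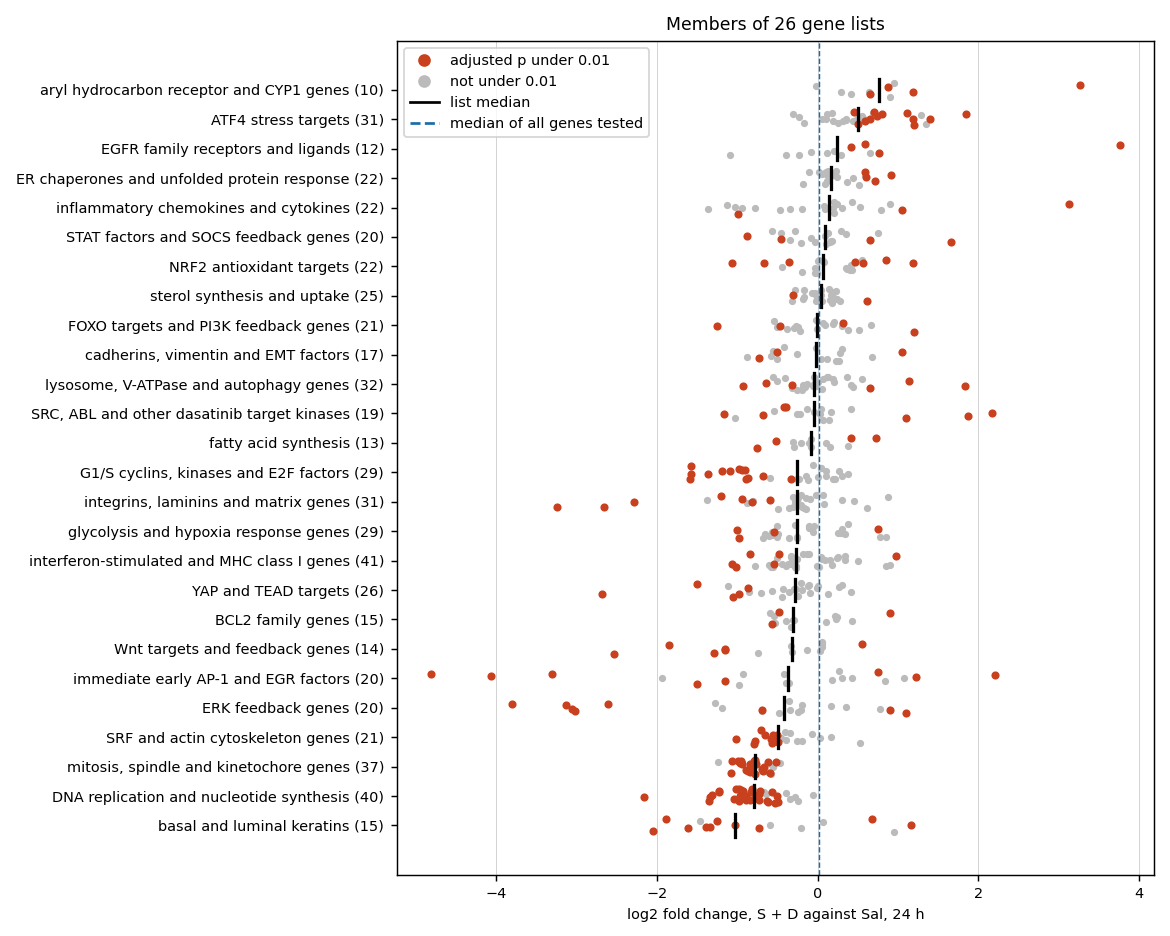
Log2 fold change of S + D against Sal at 24 h (horizontal axis) for every tested member of 26 gene lists, ordered by list median, with the number tested in parentheses. Red points have an adjusted p under 0.01, black bars are list medians and the dashed line is the median of all genes tested, 0.02; the lowest list medians are -1.03 for keratins, -0.79 for DNA replication and -0.78 for mitosis.

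Genes of DNA replication fell together. Of 40 tested, 30 fell and 0 rose, with a median of -0.79. RRM2, the limiting subunit of ribonucleotide reductase, was at 324, 476, 476 and 435 CPM in Sal and 87.2, 92.5, 101 and 101 in S + D, a 4.48-fold fall (log2 -2.16, SE 0.12, adjusted p = 1.22e-08). TK1, the thymidine kinase of the salvage pathway, went from 241, 149.6, 113 and 139 to 109.9, 47.1, 48.3 and 46.7 CPM, log2 -1.35 (SE 0.33), and its unnumbered libraries were the highest of their groups. TK1 was called in the leave-outs only without replicate 2 of Sal or the unnumbered S + D library. MCM10, which helps to activate the replicative helicase, had log2 -1.34. The count was 27 to 33 over the fits that left out 1 library.

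G1/S cyclins, kinases and E2F factors fell in 13 of 29 cases and rose in 0, with a median of -0.26. CCND1, which encodes cyclin D1, was at 97, 140.4, 138 and 132 CPM in Sal and 31.7, 44.9, 47.5 and 44.6 in S + D, log2 -1.59 (SE 0.16, adjusted p = 3.62e-06), and the groups were well apart. CCNE2 (cyclin E2) was at 30.3, 36.6, 43.6 and 36.8 and 8.56, 14, 12 and 14.7 CPM, log2 -1.58, with 37.1% of its exon bases shared with INTS8. E2F7, a repressive E2F, had log2 -1.57, and the activator E2F2 -1.36, at 100.5, 103, 92.1 and 101 CPM in Sal and 55.2, 30.9, 34.9 and 33.5 in S + D. CDC25A, the phosphatase that activates CDK2, had -1.09 and CDK2 itself -0.68, the latter with 16.8% of exon bases shared. MYC was at 55.9, 83.9, 74.7 and 81.5 CPM in Sal and 65.3, 85.4, 82 and 85.2 in S + D, with overlapping groups and a log2 difference of 0.10 (SE 0.12, adjusted p = 0.59). ESR2, the estrogen receptor beta, had 0 to 9 counts per Sal library and 3 to 5 per S + D library, below the filter, and a two-sided exact permutation test gave p = 0.343.

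Mitotic genes fell in 26 of 37 cases and rose in 0, with a median of -0.78, but the unnumbered libraries did not share this. Among the numbered libraries the median member differed by -1.0 (S + D minus Sal, on the log2(CPM + 0.5) scale), and in the unnumbered pair by 0.02. The unnumbered Sal library had the lowest mitotic level of its group, -1.15 relative to the control mean against -0.52 to -0.31 for the other 3. Leaving out single libraries moved the count between 12 (without replicate 2 of S + D) and 33 (without the unnumbered Sal library); it was 13, 15 and 16 without replicate 1 or 3 of S + D or replicate 2 of Sal, and 37 of 37 in the numbered libraries. CDK1, the mitotic kinase, was at 116, 138, 162 and 135 CPM in Sal and 93.7, 54.1, 59.1 and 56.8 in S + D, log2 -1.06 (SE 0.18). ANLN, the anillin of the cytokinetic ring, was at 177, 398, 439.8 and 362 and 153, 163, 166 and 171 CPM, log2 -1.08, and the kinesin KIF20A had -0.99 with the unnumbered Sal library inside the S + D range.

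**Figure D3:**
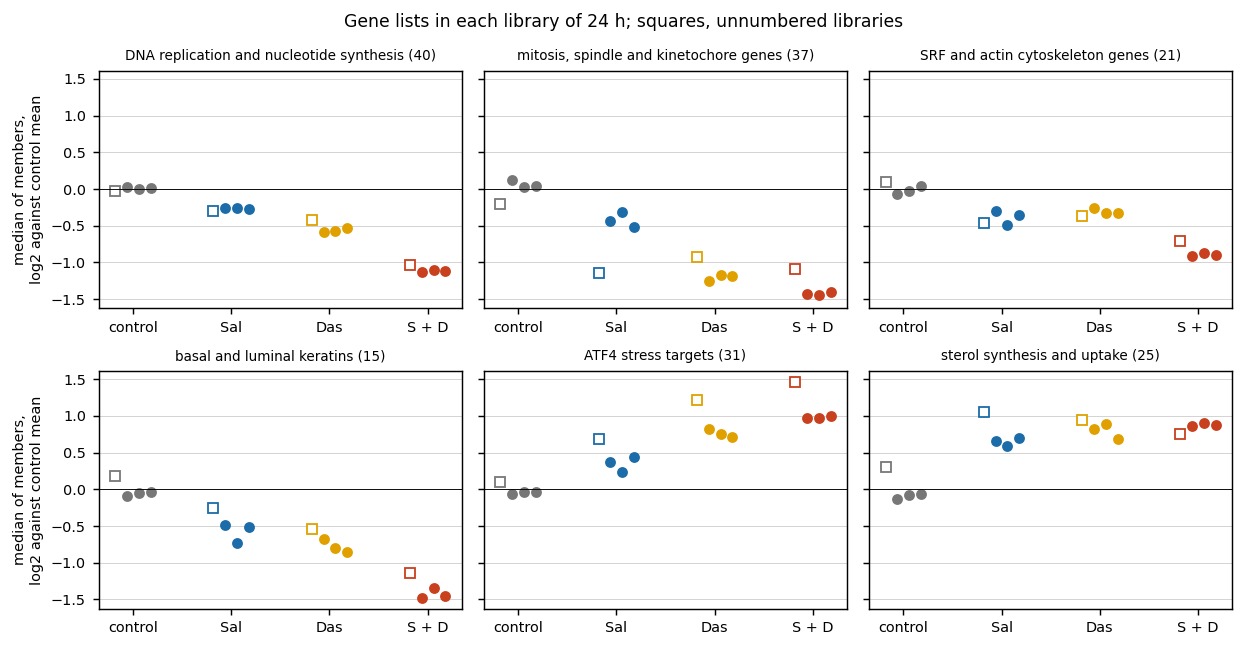
Median over the members of 6 gene lists in each of the 16 libraries of 24 h, as the log2(CPM + 0.5) difference from the mean of the 4 control libraries (vertical axis); colours and columns are the groups, squares the unnumbered libraries. DNA replication sits at -1.13 to -1.03 in S + D against -0.30 to -0.26 in Sal, whereas mitosis in the unnumbered Sal library (-1.15) lies at the level of its S + D counterpart (-1.09).

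Of 31 targets of the stress factor ATF4, 12 rose, 0 fell and 19 were not called, with a median of 0.50. SLC7A5, the amino acid transporter LAT1, was at 802, 661, 547 and 702 CPM in Sal and 2765, 2299, 2393 and 2290.0 in S + D, 3.59-fold higher (log2 1.85, SE 0.13, adjusted p = 9.74e-08). Its partner chain SLC3A2 was at 384, 235, 208 and 236 and 836, 545, 544 and 522 CPM, log2 1.20, with the unnumbered library highest in both groups. CTH, the last enzyme of transsulfuration, had log2 1.40. SLC3A2 was not called without replicate 1, 2 or 3 of Sal or the unnumbered S + D library, taken singly. The count was 6 without replicate 1 of Sal and also without replicate 3 of Sal, and in the numbered libraries 21 of 31 rose and 3 fell. Of 22 genes for ER chaperones and the unfolded protein response 4 rose and 0 fell, among them the sensor ERN1 (IRE1, log2 0.92), the ERAD adaptor SEL1L (0.71) and the chaperone HYOU1 (0.61), the last not called without replicate 1 or 3 of Sal. In the unnumbered pair the median member differed by -0.07 and in the numbered libraries by 0.33. The count was 10 without the unnumbered Sal library, in which the median member stood 0.94 above the control mean against 0.23 to 0.32 in the other Sal libraries.

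Of 32 lysosomal genes 3 rose (6 without the unnumbered Sal library) and 3 fell, shares near those of all genes tested, with a median of -0.04. GPNMB, a glycoprotein of lysosome-related organelles, was at 99, 86.2, 92.7 and 104 CPM in Sal and 242, 387, 363 and 375 in S + D, log2 1.84 (SE 0.12, adjusted p = 6.65e-08). The protease CTSL rose (1.14), as did GABARAPL1, an ATG8 protein (0.65), while CTSD fell (-0.93, with 48.2% of its exon bases shared), as did the channel MCOLN1 (-0.64) and GUSB (-0.32), the last not called without replicate 1 of Sal or replicate 1, 2 or 3 of S + D. Of 22 NRF2 targets 4 rose and 3 fell, with SLC7A11 (the cystine transporter, also an ATF4 target, log2 1.19), PIR (0.86) and GCLC (0.57) rising and AKR1B10 (-1.06) and ABCC3 (-0.67) among those falling. The 3 falls were 1 without replicate 1 of S + D, and ABCC3 was also not called without replicate 1 or 2 of Sal or the unnumbered library or replicate 3 of S + D.

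In the aryl hydrocarbon receptor list 4 of 10 rose and 0 fell, with a median of 0.76. Beside CYP1A1, CYP1B1 was at 684, 851, 928 and 863 CPM in Sal and 1296, 2039, 2112 and 2141 in S + D, log2 1.19 (SE 0.14, adjusted p = 2.39e-05), and 13% of its exon bases are shared with its antisense gene. TIPARP, a repressor of the receptor, had log2 0.87, not called without replicate 1, 2 or 3 of Sal or the unnumbered S + D library.

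Keratins had the lowest list median, -1.03. Of 15 tested, 8 fell and 2 rose. KRT14, the basal type I keratin, was at 4.77, 9.55, 7.72 and 9.5 CPM in Sal and 1.29, 2.08, 2.47 and 1.78 in S + D, log2 -2.05 (SE 0.25, adjusted p = 2.29e-05). KRT23 was at 59.6, 89.5, 85 and 85.9 and 16.4, 23, 24.9 and 22.3 CPM, log2 -1.89, and KRT6B had -1.62. The hair keratin KRT81 rose, from 238, 150.2, 128 and 154 to 298, 407, 406 and 394 CPM, log2 1.17, and KRT86 by 0.68, though these are close paralogs whose split of reads is uncertain. Of 17 cadherin, vimentin and EMT genes 1 rose, the tight junction claudin CLDN1 (1.05), and 2 fell, P-cadherin (CDH3, -0.73) and the splicing factor ESRP2 (-0.50). These shares are near the 5.83% and 7.06% of all genes tested. Of 14 Wnt genes 5 fell and 1 rose, WNT5A (0.56). DKK1, a secreted Wnt inhibitor, was at 6.21, 7.66, 7.2 and 7.24 CPM in Sal and 0.479, 1.8, 1.12 and 1.47 in S + D, log2 -2.54 (SE 0.27), and WNT3A (-1.85) and WNT6 (-1.29) also fell. The median member of the Wnt list differed by 0.22 in the unnumbered pair and by -0.48 in the numbered libraries. The rise of WNT5A was not called without replicate 1 or 3 or the unnumbered library of Sal, nor without replicates 1, 2 or 3 of S + D, taken singly.

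In immune signalling, IL6 held 5 counts over the 4 Sal libraries and 46 over the 4 S + D libraries, a ratio of 9.62 (95% counting interval 3.84 to 31.0, adjusted p = 0.00548). Its receptor subunit IL6R was at 9.19, 3.75, 4.54 and 3.06 CPM in Sal and 21.8, 15, 14.7 and 13.8 in S + D, log2 1.67 (SE 0.28), and LIFR rose by 0.65. STAT3 (-0.46) and the STAT5 target CISH (-0.88) fell, so 2 of 20 STAT and SOCS genes rose and 2 fell. LIFR was not called without replicate 1 or 3 of Sal. Of 22 chemokine and cytokine genes 2 rose, IL6 and the NF-κB inhibitor TNFAIP3 (1.05), and 1 fell, CXCL16 (-0.99). Over all genes tested 5.83% rose and 7.06% fell, so the STAT and chemokine counts are not read as results about these lists. IL6 was called in the leave-outs only without the unnumbered Sal library or replicate 2 of S + D, and 3 chemokine genes fell without the unnumbered Sal library and 2 without the unnumbered S + D library. Of 41 interferon-stimulated genes 5 fell, among them IFITM1 (-1.06, with 31.6% of its exon bases shared), OAS3 (-1.01) and BST2 (-0.84), and ISG20 rose (0.97). ISG20 was called in the leave-outs only without the unnumbered Sal library, where 2 genes of the list rose, and BST2 was not called without the unnumbered library or replicate 3 of Sal or replicate 1, 2 or 3 of S + D. Without the unnumbered S + D library 8 fell, and in the numbered libraries 22 of 40. In the unnumbered pair the median interferon-stimulated gene differed by -0.09 and in the numbered libraries by -0.29.

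Metabolic and survival genes were called in both directions. Over all genes tested 5.83% rose and 7.06% fell, so the small counts here are not read as results about the lists. Of 29 glycolysis and hypoxia genes 3 fell, PKM (log2 -1.0, 1533 ± 113 to 768 ± 89.4 CPM), LDHA (-0.98) and HK1 (-0.55), and VEGFA rose (0.75), which was called in the leave-outs only without the unnumbered Sal library or replicate 2 of S + D. The unnumbered Sal and S + D libraries stood 1.01 and 0.79 above the control mean in this list and the numbered ones at -0.60 to -0.06. Without the unnumbered S + D library 6 fell, and in the numbered libraries 17 of 29. Of 13 fatty acid genes ME1 (0.72) and ACSL1 (0.42) rose and SREBF1 (-0.75) and FASN (-0.51) fell, FASN not without replicate 1 or 3 of Sal or the unnumbered library or replicate 1 or 3 of S + D. Of 15 BCL2 family genes the proapoptotic HRK rose (0.90), and the antiapoptotic MCL1 (-0.48) and BCL2L1 (-0.56, with 41.3% of its exon bases shared) fell. In the numbered libraries 8 of the 15 fell and 1 rose, where 23% of all genes fell and 18.4% rose. Of 21 FOXO and PI3K feedback genes PDK4 (1.21) and FOXO3 (0.32) rose, and TRIB2 (-1.25) and INSR (-0.47) fell, with medians of 0.24 in the unnumbered pair and -0.07 in the numbered libraries. TRIB2, a pseudokinase, was at 95.3, 116, 123 and 113 CPM in Sal and 40.3, 48.6, 49 and 49.7 in S + D. The 2 rises were not called when replicate 2 or 3 of either group or the unnumbered Sal library was left out, and the falls numbered 1 without replicate 1, 2 or 3 of either group.

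The response to Das without Sal (Das against control, 8 other libraries) was set beside it. There 242 genes rose (1.48%) and 166 fell (1.01%). Of the 158 that rose with Sal present, 110 were also called higher without it, 69.6% of the former and 45.5% of the latter. Of the 175 that fell, 115 were called lower without Sal, 65.7% and 69.3%, and 0 were called in the opposite direction in either case. All 12 rises and all 12 falls ranked above, under the limit of 1 CPM and no overlap, had an adjusted p under 0.01 in the same direction. Across the 16357 genes the log2 changes had a Pearson r of 0.80, given as a description of genes that are not independent. The median log2 change of the 158 was 1.99 with Sal and 2.03 without, and that of the 175 was -2.12 and -1.83.

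**Figure D4:**
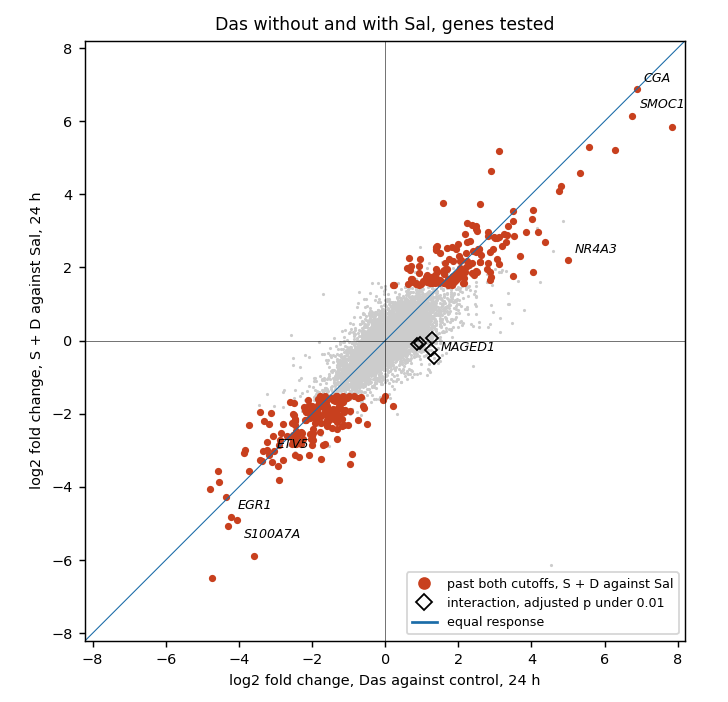
Log2 fold change on Das without Sal (horizontal axis, Das against control) and with Sal (vertical axis, S + D against Sal) for 16357 genes at 24 h; red points pass both cutoffs for S + D against Sal, diamonds are the 5 genes with an interaction at an adjusted p under 0.01 and the line marks an equal response. Red points follow the line at both ends, from SMOC1 at 6.76 and 6.15 to EGR1 at -4.22 and -4.81, while the 5 diamonds lie below the line.

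The interaction term asks whether the response to Das differed with Sal present. In this fit 5 genes (0.0306%) had an interaction below 0 and 0 (0%) above at an adjusted p under 0.01; at an unadjusted p under 0.05 the numbers were 781 and 464. MAGED1, an adaptor of the MAGE family, was at 52.7, 56.8, 59.4 and 59 CPM in control, 191, 182, 148 and 184 in Sal, 144, 149, 138 and 143 in Das and 127, 120.5, 128 and 128 in S + D. It was higher in Das than in control and lower in S + D than in Sal, an interaction of -1.82 (SE 0.11, adjusted p = 5.87e-07). MAGEH1 (-1.51), SEC24D (-1.19), COPG1 (-1.01) and B3GNT9 (-0.96), a glycosyltransferase, also had a higher mean in Das than in control. SEC24D and COPG1 are coat subunits of the vesicles between the endoplasmic reticulum and the Golgi. COPG1 was at 239.6 ± 6.21 CPM in control, 464 ± 17.8 in Das, 621 ± 63.4 in Sal and 596 ± 11.1 in S + D. SEC24D was at 28.4 ± 0.535, 68.9 ± 8.51, 105 ± 8.61 and 111 ± 6.76 CPM in the same order, and its S + D and Sal levels overlapped (log2 0.08, adjusted p = 0.555). The interaction of MAGEH1 was not called without replicate 1 of Das or replicate 1 of S + D.

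These counts moved with the unnumbered libraries and with the tool. With a batch term for them, 194 genes lay below 0 (1.19%) and 38 above, and in the 12 numbered libraries 732 (4.5%) and 95. DESeq2 called 130 (0.965% of those with an adjusted p) and 17. Leaving out 1 library gave 24 below 0 without the unnumbered Sal library, 20 without the unnumbered control, 18 and 10 without replicate 2 or 1 of Sal and 16 without the unnumbered Das library, with at most 3 above.

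Of the 26 lists, sterol genes had the interaction median farthest from 0. Adding Das to Sal raised 1 of 25 (STARD4, a sterol carrier, log2 0.61) and lowered 1, with a median of 0.05 (-0.33 in the unnumbered pair and 0.15 in the numbered libraries). In the fit of the numbered libraries 9 of 25 rose and 2 fell, where 18.4% of all genes rose and 23% fell. STARD4 was called in the leave-outs only without the unnumbered Sal library, and 0 fell without replicate 1 or 3 of S + D. Das alone raised 20 of 25 and lowered 0, with a median of 0.81, and Sal alone raised 19 and lowered 0, with a median of 0.80, both against the same control libraries. Over all genes Das alone raised 6.99% and lowered 6.88% at the adjusted p alone, and Sal alone raised 4.55% and lowered 2.23%. HMGCS1, which makes HMG-CoA and was named after its values were seen, was at 224 ± 77.1 CPM in control, 548 ± 67.5 in Sal, 459 ± 26.6 in Das and 522 ± 92.8 in S + D. Of the 25 interaction terms 0 had an adjusted p under 0.01 in edgeR (23 below 0 at an unadjusted p under 0.05, and 13 in DESeq2), with a median of -0.81. With the batch term 18 of 25 were called below 0, and in the numbered libraries 23. The unnumbered control library stood 0.30 above the control mean in this list and the unnumbered S + D library at 0.76 against 0.86 to 0.90 for the other 3.

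Further lists are given by their counts. ATF4 targets rose in 20 of 31 cases with Das alone and 12 with Das added to Sal. Mitotic genes fell in 37 of 37 and 26 of 37, DNA replication genes in 23 and 30 of 40, and G1/S genes in 10 and 13 of 29. Keratins fell in 9 and 8 of 15. The counts with Das added to Sal moved with the unnumbered libraries. With a batch term for them 20 ATF4 targets rose and 1 fell. In that fit 36 mitotic, 37 replication and 15 G1/S genes and 10 keratins fell. Over all 16357 genes 2492 rose and 2586 fell in it. In the fit used throughout, the interaction was called for 0 members of these 5 lists. With the batch term it was called below 0 for 8 ATF4 targets, 6 replication genes, 4 G1/S genes and 1 keratin. In the numbered libraries 5 mitotic genes and 2 ATF4 targets were called above 0. Called below 0 there were 13 ATF4 targets, 15 replication genes, 8 G1/S genes and 4 keratins. Chemokine and cytokine genes, added after their values were seen, had an interaction median of 0.67 with 0 of 22 called. With the batch term 4 of them were called above 0 and 0 below, against 38 and 194 of all 16357 genes.

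**Figure D5:**
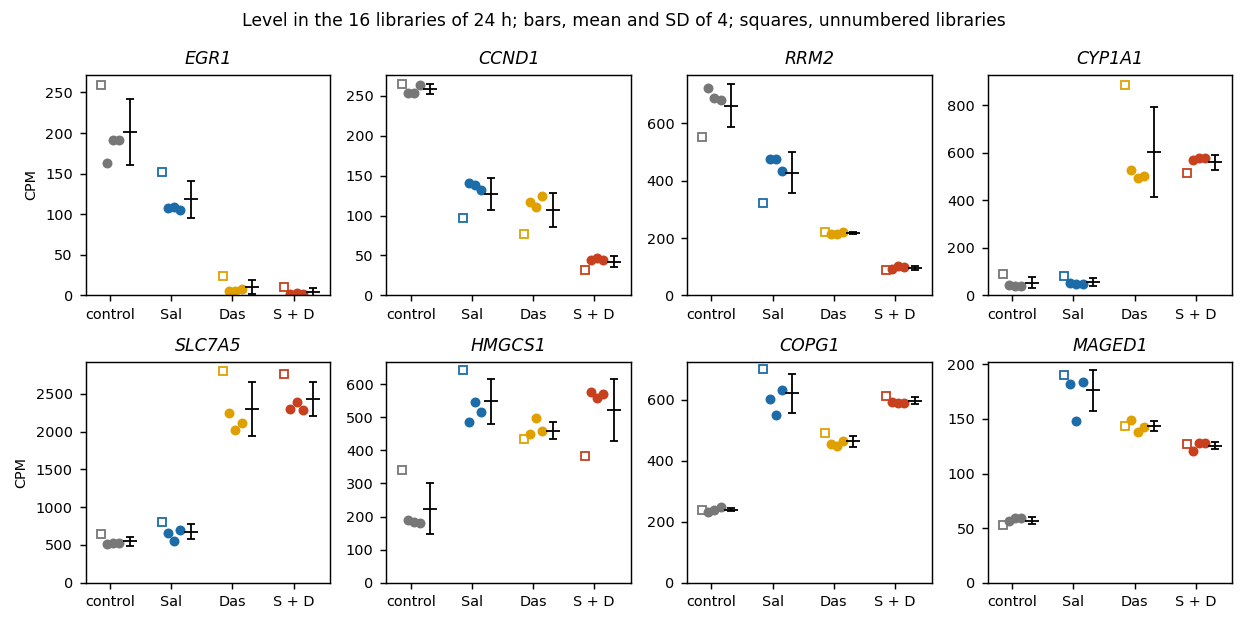
CPM (vertical axes, from 0) of 8 genes in the 16 libraries of 24 h, by group; points are libraries, squares the unnumbered ones, and bars the mean and SD of 4. EGR1, CCND1 and RRM2 are lower and CYP1A1 and SLC7A5 higher in Das than in control and in S + D than in Sal, whereas HMGCS1, COPG1 and MAGED1 are higher in Das than in control without a like rise from Sal to S + D.

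At 72 h, in 8 other libraries, adding Das to Sal raised 69 of 16682 genes (0.414%) and lowered 89 (0.534%). Among 16052 genes tested at both times, 22 of the 151 rises of 24 h were called higher at 72 h, 14.6% of these and 36.1% of the 61 at 72 h. Of the 170 falls 33 were called lower, 19.4% and 41.2%, and 0 were called in the opposite direction. The median log2 change of the 151 rises was 1.96 at 24 h and 0.86 at 72 h, and that of the 170 falls -2.11 and -1.09. Without replicate 2 or 3 of the 72 h Sal group, 44 and 45 genes rose at 72 h. Whether the times differ was not tested. At 72 h 1.42% of genes rose and 1.59% fell at the adjusted p alone. Of the 12 rises ranked above under that limit 5 had an adjusted p under 0.01 in the same direction at 72 h, among them SMOC1 (log2 3.62), MAPK4 (4.32) and CYP1A1 (2.38). Of the 12 falls so ranked 7 did, among them EGR1 (-7.72), ETV1 (-5.01), ETV5 (-3.68) and PER3 (-2.94). IVL and TNC, which fell at 24 h, had log2 differences of 0.72 (adjusted p = 0.0401) and -0.14 (adjusted p = 0.891) at 72 h. CCND1 fell at both times (-1.45 at 72 h, adjusted p = 6.91e-05).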

How the data were processed

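MDA-MB-468 RNA was sequenced as single-end 50-base reads (TruSeq, HiSeq4000), and per the study's methods and processing notes the authors used bcl2fastq 2.19, STAR 2.5.2 and GRCh37. The deposited table holds raw counts per gene, and the counting program, annotation and strand setting are not given in the sources used here. FPKM tables were not used here. The 16 libraries of 24 h were fitted together with edgeR 4.0.16 (R 4.3.3, TMM scaling, filterByExpr with a minimum count of 10, quasi-likelihood test), with contrasts S + D minus Sal, Das minus control and their difference, and the 16 of 72 h likewise. P-values were adjusted by Benjamini-Hochberg over all genes tested. Over all genes a call took both cutoffs (0.01 for the adjusted p, 1.5 for the size of the log2 change), and for list members and interactions the former alone. CPM used TMM-scaled totals. The 4 replicates are labelled biological.

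The genes and lists were chosen with earlier results of these data known. Named were the 12 largest rises and 12 largest falls among called genes whose mean reached 1 CPM in the higher group and whose groups did not overlap, the study's cell cycle genes, ESR2 and SRC, up to 4 interactions per direction, and up to 3 called members per list and direction, and genes named beyond this (the remaining called members of short lists, B3GNT9, and those so marked) were chosen after their values were seen. Single genes that the rule would name but the text does not are not reported here. Gene positions and shared exon bases came from a GENCODE annotation on GRCh37, which matched 46537 of 48804 identifiers. On simulated counts for 16122 genes, 98 of 100 changes of log2 2 and 100 of 100 of log2 3 were recovered for S + D against Sal. Recovery meant an adjusted p under 0.01 and the right direction, without the cutoff on size. The changes were put only into genes with a mean of at least 1 CPM, and no shared difference of the unnumbered libraries was simulated. The recovery therefore does not cover lower genes or that difference. Replicates differed by more than sampling noise in the Sal and S + D groups of 24 h, the only groups examined for this. Counting intervals (exact, 95%) cover counting error only. Alternatives were DESeq2 1.42.0, RLE scaling, no filter, a batch term, other sets of libraries and leaving out each library.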

Additional observations from a re-analysis of the deposited data

Results flagged for a closer look

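For each of the 127 named genes that were tested, the most extreme of the 4 libraries of the Sal and of the S + D group was compared with the range of its group. In 47 of 254 such groups 1 library stood farther from the others than Dixon's test allows at 95%, where chance gives about 1 in 20, and in 45 of the 47 it was the unnumbered library. The unnumbered S + D library was above the other 3 S + D libraries in CMBL (1.29 against 0.899 to 0.921 CPM), CCN5 (8.47 against 3.16 to 3.58 CPM), S100A7 (66.8 against 18.3 to 21.3 CPM), EGR1 (10.9 against 1.49 to 2.47 CPM), MAFF (83.9 against 56.1 to 59.0 CPM), TK1 (109.9 against 46.7 to 48.3 CPM), E2F2 (55.2 against 30.9 to 34.9 CPM) and CDK2 (43.7 against 36.7 to 37.6 CPM). It was also higher in CDK1 (93.7 against 54.1 to 59.1 CPM), KIF20A (100.2 against 86.3 to 88.3 CPM), SLC3A2 (836 against 522 to 545 CPM), HYOU1 (899 against 706 to 726 CPM), TIPARP (63.1 against 35.9 to 40.4 CPM), IL6R (21.8 against 13.8 to 15.0 CPM), LIFR (34.7 against 23.1 to 24.9 CPM) and STAT3 (240.3 against 210.5 to 212 CPM). It was also higher in CISH (16.4 against 11.8 to 12.4 CPM), TNFAIP3 (28.3 against 17.6 to 19.3 CPM), LDHA (583 against 348 to 358 CPM), VEGFA (668 against 414 to 437 CPM), SREBF1 (105 against 92.4 to 94.2 CPM) and SEC24D (121 against 107 to 109 CPM). It lay below them in SMOC1 (23.7 against 37.7 to 39.5 CPM), MAPK4 (22.7 against 52.4 to 56.3 CPM), CYP1A1 (513 against 569.9 to 579 CPM), RHOU (23.8 against 35.2 to 35.8 CPM), PLEKHS1 (0.629 against 1.56 to 1.71 CPM), MYC (65.3 against 82.0 to 85.4 CPM), CTH (47.6 against 61.1 to 63.8 CPM) and GPNMB (242 against 363 to 387 CPM). Lower levels were also seen there in CYP1B1 (1296 against 2039 to 2141 CPM), KRT81 (298 against 394 to 407 CPM), ACSL1 (264 against 309.9 to 313 CPM), BCL2L1 (50.7 against 62.8 to 63.2 CPM), TRIB2 (40.3 against 48.6 to 49.7 CPM) and HMGCS1 (383 against 558 to 576 CPM). The unnumbered Sal library was above its group in CYP1A1 (83.3 against 48.5 to 51.7 CPM), CCN5 (1.72 against 0.175 to 0.207 CPM), EGR1 (152 against 105 to 109 CPM), NR4A3 (5.37 against 1.06 to 1.5 CPM) and SLC3A2 (384 against 208 to 236 CPM). The unnumbered Sal library was below its group in PLEKHS1 (6.68 against 14.8 to 15.4 CPM), KIF20A (97.8 against 198 to 215 CPM), KRT23 (59.6 against 85.0 to 89.5 CPM) and INSR (52.8 against 68.6 to 71.2 CPM). The other two were replicate 2 of Sal for GNG13 (0.279 against 0.0545 to 0.0887 CPM) and replicate 1 of S + D for MAGED1 (120.5 against 127 to 128 CPM).

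The response to Das differed between cells with and without Sal, by the interaction term in edgeR at an adjusted p under 0.01, for MAGED1 (-1.82), MAGEH1 (-1.51), SEC24D (-1.19), COPG1 (-1.01) and B3GNT9 (-0.96), all on the log2 scale and all with the lower response in cells that received Sal.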

How the results depend on the processing

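For S + D against Sal at 24 h, edgeR with RLE scaling, no filter on low counts, DESeq2, all 32 libraries in 1 fit, only the 8 libraries compared and a batch term for the unnumbered libraries gave 108 to 202 rises and 128 to 216 falls. Using the adjusted p alone gave 954 and 1154 (Das against control 1143 and 1125, and 72 h 237 and 265). The 12 numbered libraries alone gave 223 and 278, of which 143 of the rises were among the 158. Leaving out 1 library gave 124 to 188 rises and 156 to 245 falls, 195 to 247 and 144 to 178 for Das against control, and 44 to 99 and 63 to 80 at 72 h. The batch term gave 120 rises at 72 h.

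The interaction gave 0 to 3 genes above and 4 to 24 below 0 on leaving out 1 library. It gave 17 and 130 by DESeq2, 38 and 194 with the batch term, 95 and 732 in the numbered libraries and 1 above with all 32 libraries. RLE scaling gave 9 below, no filter 10 and a log2 cutoff of 1.5, chosen after seeing the data, 2. The cause of these differences was not tested.

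The replicate numbers are shared between groups, but among numbered libraries same-numbered samples deviated with r of -0.213 to 0.255, so the numbers share only a name. With a replicate block, 202 genes rose and 207 fell, 12 interactions lay above and 105 below 0, and at 72 h 109 rose. Of 125 results for single genes, 27 lost their call when some library was left out and 0 changed direction under the alternatives run. Depth limited genes below the filter, ESR2 among them.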

Other observations

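Further gene groups were put together after the values had been seen, so their counts are descriptions and support nothing. Of 19 circadian clock genes 8 fell and 1 rose at an adjusted p under 0.01 in edgeR, with a median log2 change of -0.98 when Das was added to Sal. CRY1, a clock repressor, had -2.76 (22.8 ± 5.09 CPM in Sal and 3.37 ± 0.487 in S + D, SD, n = 4), TEF, a PAR bZIP factor, -2.25, and the repressor PER2 -1.60. NPAS2, a partner of BMAL1, rose by 1.64. Of 18 epidermal differentiation genes 9 fell and 0 rose, with a median of -1.54, among them the elastase inhibitor PI3 (-2.82), the kallikrein KLK6 (-2.60) and S100A9 (-2.53).

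Of 16 genes of cAMP and CREB signalling 7 rose and 0 fell, with a median of 0.96, and with Das alone 8 rose, with a median of 1.46. Most are targets of CREB, but the list also holds its coactivators CRTC1 and CRTC2. The CRE motif TGACGTCA was found in 2.88% of the 104 promoters available for the genes called higher and in 3.14% of the 11561 of the genes tested. The AP-1 motif TGACTCA, searched on both strands, was found in 12% of the 117 promoters of the genes called lower, in 8.65% of the 104 of the genes called higher and in 3.24% of those tested. GGAATG was found in 17.1%, 8.65% and 11%. These shares were not tested.

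Of 25 genes for the coats of secretory vesicles and related traffic 0 were called in either direction when Das was added to Sal. The list also holds KDEL receptors and the transcription factors CREB3 and CREB3L2, so its counts are not for coat proteins alone. With Das alone 16 rose, with a median of 0.61, and with Sal alone 19 rose, with a median of 1.15, against the same control libraries, where 6.99% and 4.55% of all genes rose. The interaction was below 0 for 2 of them, SEC24D and COPG1, and for 14 with a batch term for the unnumbered libraries.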
